A study of Mus musculus with 9 samples.

Results

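The miR-99, miR-100 and miR-125 families are represented on the arrays by 6 of the 611 mouse miRNA names: mmu-miR-99a, mmu-miR-99b and mmu-miR-100, which share a seed, mmu-miR-125a-5p and mmu-miR-125b-5p, which share another, and mmu-miR-125a-3p, the opposite arm of the miR-125a hairpin. They were chosen by name as the partners of let-7 in 3 genomic clusters, with both arms of miR-125a and no name ending in an asterisk, and they were read by 14 probes on 120 spots of each array. The study profiled mature miRNAs of the primary visual cortex at postnatal day 28, in mice of the C57BL6 strain. The dark-reared group (3 arrays) lived without light from birth, the monocularly deprived group (3 arrays) lived under normal lighting until the lid of 1 eye was sutured at postnatal day 24, and the control group (3 arrays) lived under normal lighting throughout. In the monocularly deprived group, the cortex opposite the sutured eye was taken. No label tells whether the 3 samples of a group are from different animals, from pools or from repeats of 1 extract, and the p-values rest on their spread alone, which could be technical.

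A miRNA is cut from a hairpin precursor as a short mature strand, which is loaded into an Argonaute protein and pairs through its seed, bases 2 to 8, with sites in messenger RNAs that are then repressed. The miR-125 family is the vertebrate counterpart of worm lin-4, and in mammals its genes lie in clusters with a let-7 gene and a miR-99 or miR-100 gene. In brain, miR-125b is abundant in neurons and astrocytes and has been tied to the shape of dendritic spines in cultured rodent hippocampal neurons. Mammalian miR-99 and miR-100 are known for repressing mTOR, a kinase of the growth pathway.

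The mature sequences are shown because the seed divides the 6 miRNAs into groups and the remaining bases decide how well a probe separates them. All 6 matched a RefSeq entry, written 5′ to 3′ with the seed in capitals.
miR-99a: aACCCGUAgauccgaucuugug
miR-100: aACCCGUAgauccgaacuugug
miR-99b: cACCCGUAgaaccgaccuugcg
miR-125a-5p: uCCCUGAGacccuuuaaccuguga
miR-125b-5p: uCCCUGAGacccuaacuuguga
miR-125a-3p: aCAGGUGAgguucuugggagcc

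miR-99a and miR-100 differ by the single substitution U16A, with positions counted from the 5′ end of miR-99a. miR-99b differs from miR-99a by A1C, U11A, U16C and U21C, all of them outside the seed. miR-125a-5p and miR-125b-5p share their first 13 bases. Of the other mature mouse miRNAs in the RefSeq table, miR-351, miR-6367 and miR-6394 carry the miR-125 seed, and of these only miR-351 has a probe here. miR-351 was not detected on any of the 9 arrays.

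The genes lie on the plus strand in 3 clusters (RefSeq coordinates, GRCm38.p6). Mir99a, Mirlet7c-1 and Mir125b-2 span 47.4 kb at chr16:77598940-77646339, and Mir100, Mirlet7a-2 and Mir125b-1 span 50.6 kb at chr9:41531437-41582001. Mir99b, Mirlet7e and Mir125a lie within 0.683 kb at chr17:17830194-17830876. Mature miR-125b-5p can come from both Mir125b-1 and Mir125b-2, which an array cannot tell apart. The Mir125a hairpin (chr17:17830812-17830879, plus strand) is shown because its 2 arms gave different results. The capitals mark miR-125a-5p on the left and miR-125a-3p on the right.
Mir125a: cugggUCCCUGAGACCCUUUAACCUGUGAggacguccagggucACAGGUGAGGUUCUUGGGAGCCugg

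Each miRNA is read by a series of probes that cover its 3′ end and stop at different bases toward its 5′ end. The longest probe of each is shown, written 5′ to 3′ as DNA. All of these longest probes reach into the seed. The capitals mark the bases that its shortest probe lacks, so each series differs only at that end.
miR-99a, 19 bases: cacaagatcggatctacgG
miR-100, 19 bases: cacaagttcggatctacgG
miR-99b, 16 bases: cgcaaggtcggttctA
miR-125a-5p, 19 bases: tcacaggttaaagggtctC
miR-125b-5p, 17 bases: tcacaagttagggtctC
miR-125a-3p, 16 bases: ggctcccaagaacCTC

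The probes of miR-99a have 1 mismatch to miR-100, and those of miR-100 have 1 mismatch to miR-99a, so signal shared between this pair was not separated here. Every other member probe has at least 2 mismatches to any other mature mouse miRNA in the RefSeq table. Levels are given as log2 of the signal divided by the 75th percentile of that array, where 0 means the signal at that percentile. Each miRNA is compared only with itself, because probes differ in how strongly they bind.

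The arrays detected 297 to 359 of the 611 mouse names each, and the 75th percentile was 401 to 1022 intensity units. The control and dark-reared arrays lay on slide 1 and were read in scan 1, whereas the 3 monocularly deprived arrays lay alone on slide 2 and were read in scan 2. In both comparisons with the monocularly deprived arrays, the slide and the deprivation therefore cannot be told apart. All 5 neuronal marker miRNAs (miR-124, miR-9, miR-128, miR-138 and miR-137) were detected on every array, and their summed relative levels were 67.8 to 68.8 in dark-reared, 57.6 to 81.3 in monocularly deprived and 70.0 to 70.9 in control cortex. In bulk tissue, fewer cells of a type and less RNA per cell cannot be told apart.

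All 6 miRNAs passed the detection filter through every group, not only through the group in which they were high. miR-99a had log2 levels of 0.55, 0.67 and 0.66 in dark-reared cortex, 1.16, 0.87 and 1.21 in monocularly deprived cortex and 0.44, 0.50 and 0.57 in control cortex. The 3 monocularly deprived arrays were the highest, and they overlapped with neither of the other groups. miR-100, which differs from miR-99a at a single base, had log2 levels of -0.61, -0.51 and -0.52 in dark-reared, -0.30, -0.34 and -0.40 in monocularly deprived and -0.77, -0.69 and -0.58 in control cortex. The monocularly deprived arrays were again the highest without overlap. The third miRNA of this seed, miR-99b, had log2 levels of -1.83, -1.49 and -1.71 in dark-reared, -1.38, -1.54 and -1.40 in monocularly deprived and -1.65, -1.60 and -1.69 in control cortex. Its monocularly deprived arrays lay above all control arrays, while dark-reared replicate 2 was higher than monocularly deprived replicate 2.

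miR-125b-5p was at log2 levels of 4.31, 4.33 and 4.34 in dark-reared, 4.27, 4.34 and 4.22 in monocularly deprived and 4.20, 4.36 and 4.29 in control cortex, and the 3 groups overlapped. miR-125a-5p was at 0.62, 0.89 and 0.62 in dark-reared, 0.37, 0.69 and 0.22 in monocularly deprived and 0.41, 0.80 and 0.63 in control cortex on the log2 scale. Its groups overlapped too, with replicate 2 the highest array of each group. The opposite arm of the same hairpin, miR-125a-3p, was at -3.56, -3.16 and -3.61 in dark-reared, -5.63, -5.97 and -5.66 in monocularly deprived and -3.32, -3.32 and -3.45 in control cortex on the log2 scale. The monocularly deprived arrays were lower than all 6 others by far more than the spread within any group, as the plot of levels by array shows.

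**Figure D1:**
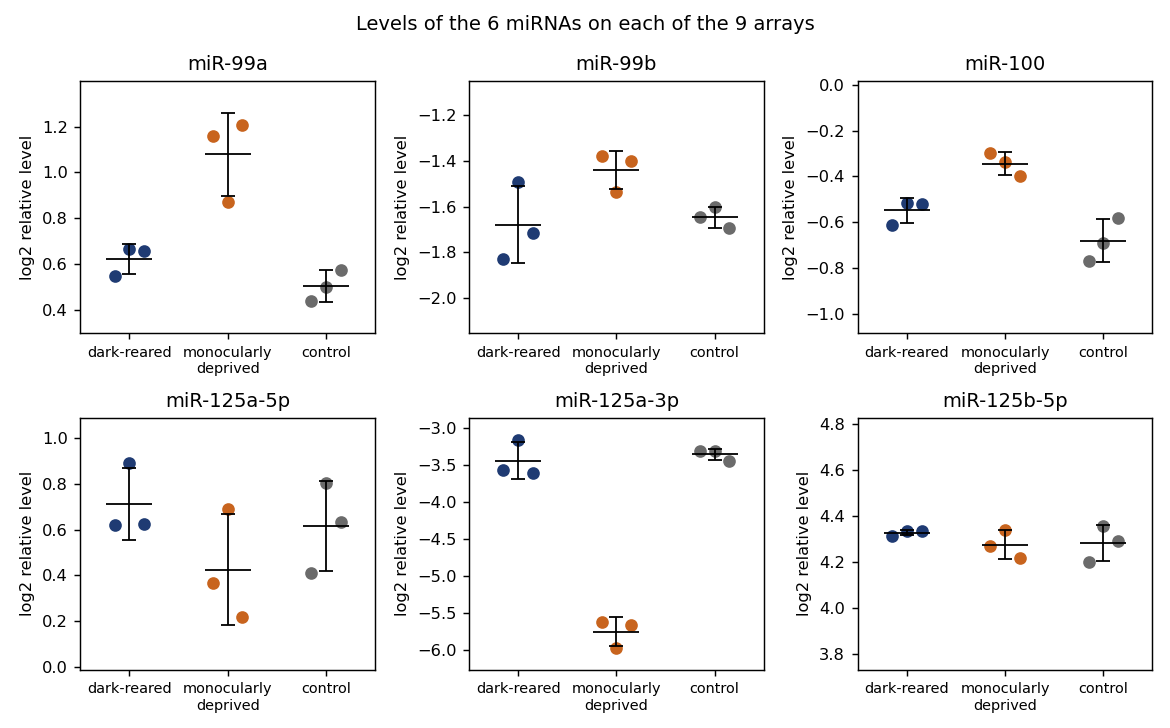
Log2 level relative to the array's 75th percentile (vertical axis, a separate range in each panel) of the 6 miRNAs on each array, with dark-reared, monocularly deprived and control arrays from left to right. Points are arrays, the long bar is the mean and the short bars are 1 SD (n = 3). miR-99a and miR-100 are highest on the 3 monocularly deprived arrays, and miR-125a-3p is lowest there, at -5.63 to -5.97 against -3.32 to -3.45 in control cortex.

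The first comparison asks whether the families differ after visual deprivation from birth. None of the 6 miRNAs was called between dark-reared and control cortex (0 of 6 at an adjusted p under 0.05, limma with Benjamini-Hochberg adjustment over 318 tested miRNAs), and 0 of 6 had an unadjusted p under 0.05. Over all tested miRNAs, 0.629% were called and 8.81% had an unadjusted p under 0.05. The log2 differences, dark-reared minus control, ran from -0.08 for miR-125a-3p to 0.13 for miR-100, with adjusted p of 0.614 to 0.921 in limma. The median of the 6 was 0.07, beside 0.05 over all 318.

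In the fit without pairing, the 95% interval of the log2 difference was narrowest for miR-125b-5p, at -0.12 to 0.22, and widest for miR-125a-5p, at -0.26 to 0.45. miR-99a had an interval of -0.12 to 0.36 and miR-125a-3p one of -0.41 to 0.25. All 6 miRNAs overlapped between the groups, where 18.6% of all tested miRNAs did not. Same-numbered arrays of these groups share a slide column and were treated as pairs, which no label states. Within the 3 pairs miR-99a was higher in dark-reared cortex by 0.11, 0.17 and 0.08 and miR-100 by 0.16, 0.18 and 0.06 on the log2 scale. The other 4 miRNAs did not go 1 way in all 3 pairs. The share of all tested miRNAs that did was not computed. Of them 62.3% had a mean difference above 0, so the direction is not read as particular to miR-99a and miR-100. With the replicate number as a block, the intervals were -0.13 to 0.37 for miR-99a and -0.08 to 0.34 for miR-100 (limma adjusted p of 0.67 and 0.59).

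The second comparison asks the same of 4 days of closure of 1 eye, and it uses the same control arrays as the first. miR-99a and miR-100 were higher in monocularly deprived than in control cortex, and miR-125a-3p was lower, so 3 of 6 were called. The background was high, with 33% of the 318 tested miRNAs called in this comparison (15.7% higher and 17.3% lower), and the count of members is not read as particular to these families. miR-125a-3p was at a log2 level of -5.75 ± 0.19 in monocularly deprived and -3.36 ± 0.08 in control cortex (SD, n = 3 each; log2 difference -2.39, SE 0.14, limma adjusted p = 5.9e-06). That level averages 4 probes, of which 3 failed to rise well above background in monocularly deprived cortex on all 3 arrays, so no fold is taken from it. The 16-base probe, well above background on all 9 arrays, was 3.13-fold lower in monocularly deprived cortex (log2 difference -1.65, limma adjusted p = 8.1e-06).

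Within the miR-99 and miR-100 seed group, miR-99a was 1.49-fold higher in monocularly deprived cortex, at 1.08 ± 0.18 against 0.50 ± 0.07 in control on the log2 scale (SD, n = 3 each; log2 difference 0.58, SE 0.10, limma adjusted p = 0.0047). miR-100 was 1.26-fold higher, at -0.34 ± 0.05 in monocularly deprived and -0.68 ± 0.09 in control cortex on the log2 scale (log2 difference 0.34, SE 0.08, limma adjusted p = 0.013). The call on miR-100 was lost without monocularly deprived replicate 1 (adjusted p = 0.058), control replicate 1 (0.058) or control replicate 2 (0.051 in limma). How much signal the probes of miR-99a and miR-100 share was not tested. miR-99b did not pass, with a log2 difference of 0.21 (95% interval -0.02 to 0.44, limma adjusted p = 0.15).

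The 2 miR-125 5′ arms did not pass either. The log2 difference, monocularly deprived minus control, was -0.19 for miR-125a-5p (95% interval -0.54 to 0.16, limma adjusted p = 0.36) and -0.01 for miR-125b-5p (95% interval -0.18 to 0.16, limma adjusted p = 0.96). The call on miR-125b-5p went both ways with the processing. It was lower with the mean of log2 probe values (-0.32, adjusted p = 0.0030) and higher when all miRNA probes set the scale (0.55, limma adjusted p = 0.024). With the scaling used in the text, 4 of 6 miRNAs did not overlap between the groups, beside 52.8% of all tested miRNAs. The median log2 difference of the 6 was 0.10, beside 0.08 over all 318.

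The size of these differences depends on the scaling. Scaled on all miRNA probes, the median of all tested miRNAs moved to 0.62 on the log2 scale, and 5 of 6 members were called, with miR-99b and miR-125b-5p added as higher. Relative to that median, miR-99a was at 0.51, miR-100 at 0.27 and miR-125a-3p at -2.46, against 0.50, 0.26 and -2.47 relative to the median of the scaling used in the text. Without scaling, miR-99a and miR-100 were no longer called (adjusted p = 0.998 for both in limma) and miR-125a-3p still was (adjusted p = 2.9e-06). With normexp background correction none of the 6 was called, where 2 of the 318 tested miRNAs were. The log2 difference of miR-99a was then 0.57 (limma adjusted p = 0.46), close to that in the text, and that of miR-125a-3p was -1.14 (limma adjusted p = 0.59, as for miR-100). With normexp without spots of very bright background, miR-99a was called (0.54, adjusted p = 0.049) and miR-125a-3p was not (-0.61, adjusted p = 0.13 in limma).

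**Figure D2:**
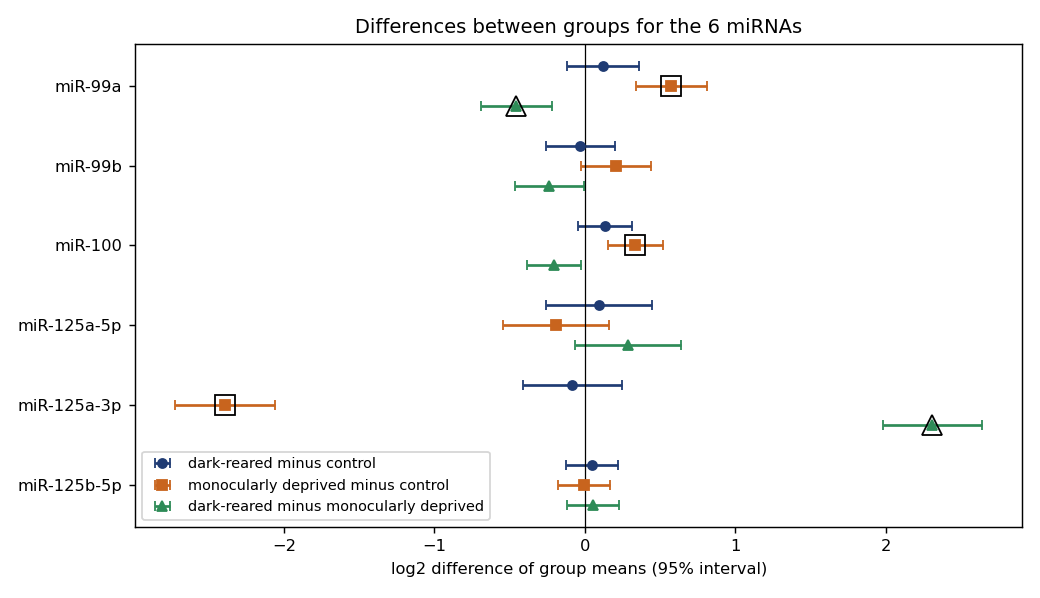
Log2 difference of group means (horizontal axis) with its 95% interval for the 6 miRNAs (rows) in the 3 comparisons. A larger black outline marks an adjusted p under 0.05. The dark-reared minus control differences (blue circles) lie between -0.08 and 0.13, and miR-125a-3p stands apart in both comparisons that use the monocularly deprived arrays, at -2.39 and 2.31, where 3 of its 4 probes were not well above background.

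Set among all tested miRNAs, the other 5 members spread widely in the monocular comparison. By size of the log2 difference, miR-99a ranked 71, miR-100 ranked 133, miR-99b ranked 191, miR-125a-5p ranked 200 and miR-125b-5p ranked 312 of 318. In the dark-rearing comparison the ranks by size ran from 137 for miR-100 to 275 for miR-99b.

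**Figure D3:**
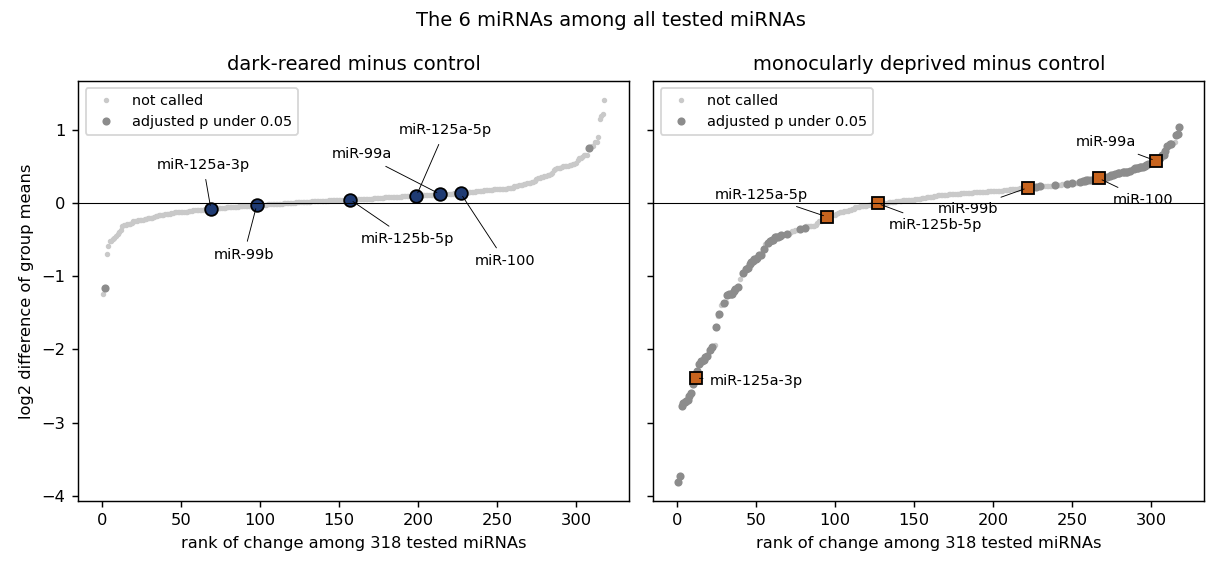
Log2 difference of group means (vertical axis) of the 318 tested miRNAs, ordered from the lowest to the highest (horizontal axis), for dark-reared minus control (left) and monocularly deprived minus control (right). Darker grey points have an adjusted p under 0.05, and the 6 members are marked. The members sit in the flat middle of the left panel, and miR-125a-3p lies in the steep lower tail of the right panel.

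The third comparison sets the 2 deprivations against each other, and it shares the monocularly deprived arrays with the second. miR-125a-3p was higher in dark-reared than in monocularly deprived cortex, with a log2 difference of 2.31 over its 4 probes (SE 0.14, limma adjusted p = 7.8e-06) and of 1.59 for the 16-base probe, which alone was well above background on the monocularly deprived arrays (limma adjusted p = 1.1e-05). miR-99a was lower in dark-reared cortex (log2 difference -0.46, SE 0.10, limma adjusted p = 0.014). These were 2 of 6 called, beside 28.6% of all tested miRNAs. miR-100 did not pass, at a log2 difference of -0.20 (95% interval -0.38 to -0.02, limma adjusted p = 0.086), although its groups did not overlap. Nor did miR-99b (-0.24, adjusted p = 0.10), miR-125a-5p (0.29, adjusted p = 0.20) or miR-125b-5p (0.05, adjusted p = 0.63 in limma). In all, 3 of 6 did not overlap, beside 46.5% of all tested miRNAs.

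The call on miR-99a in this comparison was lost on leaving out single arrays, while the difference stayed close to that over all arrays. It was -0.42 on the log2 scale both without dark-reared replicate 1 (limma adjusted p = 0.054) and without monocularly deprived replicate 1 (limma adjusted p = 0.061). With normexp, and with normexp without spots of very bright background, none of the 6 was called. Without scaling or with scaling on the 90th percentile miR-125a-3p was the 1 still called.

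The probes of a miRNA were next compared one by one, each with itself, over 528 tested mouse probes. Between dark-reared and control cortex 0 of the 14 member probes were called, beside 0.947% of all tested probes, and 0 had an unadjusted p under 0.05 in limma. Between monocularly deprived and control cortex 5 of 14 were higher and 6 were lower, beside 33.3% of all tested probes called. The lower ones include the 13-, 14- and 15-base probes of miR-125a-3p. These were at the floor in monocularly deprived cortex and were tested only through the dark-reared and control arrays. For miR-99a the 19-base and 18-base probes gave log2 differences of 0.59 and 0.54, and for miR-100 they gave 0.35 and 0.31, all 4 called.

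Between dark-reared and monocularly deprived cortex 6 of the 14 were higher and 3 were lower, beside 27.3% of all tested probes called. The higher ones include the 13-, 14- and 15-base probes of miR-125a-3p, again at the floor in monocularly deprived cortex. They also include the 18-base probe of miR-125a-5p (log2 difference 0.76, limma adjusted p = 0.0021) and the 16-base probe of miR-125b-5p (0.70, adjusted p = 7.1e-05), both lower in monocularly deprived cortex.

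The probes of miR-99b, miR-125a-5p and miR-125b-5p disagreed with each other. The 16-base probe of miR-125b-5p was lower in monocularly deprived cortex, with log2 levels of 1.66, 1.62 and 1.58 against 2.32, 2.41 and 2.28 in control (log2 difference -0.72, SE 0.06, limma adjusted p = 4.8e-05). The 17-base probe reaches 1 base further, to base 6 of the miRNA, which lies inside the seed. It had 5.15, 5.23 and 5.09 in monocularly deprived and 4.99, 5.15 and 5.10 in control cortex (log2 difference 0.08, limma adjusted p = 0.44). The level of miR-125b-5p given above is a linear mean over both probes.

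miR-125a-5p showed the same split. Its 18-base probe had log2 levels of -0.87, -0.73 and -1.01 in monocularly deprived and -0.31, 0.04 and -0.18 in control cortex, without overlap (log2 difference -0.72, SE 0.12, limma adjusted p = 0.0022). Its 19-base probe had 1.02, 1.39 and 0.87 in monocularly deprived and 0.89, 1.30 and 1.15 in control cortex, which overlapped (log2 difference -0.02, limma adjusted p = 0.95). For miR-99b the 16-base probe was higher in monocularly deprived cortex (log2 difference 0.30, limma adjusted p = 0.041), whereas the 15-base probe had a log2 difference of 0.0011 (limma adjusted p = 0.99).

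The calls on single probes also moved with the processing. Scaled on all miRNA probes, the 18-base probe of miR-125a-5p and the 16-base probe of miR-125b-5p had log2 differences of -0.17 each and were not called (limma adjusted p of 0.44 and 0.41). Without scaling only the 4 probes of miR-125a-3p were called among the 14, and with normexp 0 were, where 9 had an unadjusted p under 0.05.

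All 4 probes of miR-125a-3p were lower in monocularly deprived cortex. The 16-base probe was well above background on all 9 arrays and had log2 levels of -3.19, -2.83 and -3.13 in dark-reared, -4.65, -4.74 and -4.53 in monocularly deprived and -3.00, -2.91 and -3.08 in control cortex. Its log2 difference of -1.65, monocularly deprived minus control, had an SE of 0.11. On all 3 monocularly deprived arrays the 13-, 14- and 15-base probes were not well above background. They were at least 4.02-, 3.95- and 4.25-fold lower there than in control. Such a bound sets the mean in control against the lowest signal well above background on the monocularly deprived arrays. These probes were tested only because they were well above background in control and dark-reared cortex. Their values on the monocularly deprived arrays were all set to the floor and have no spread of their own. The limma adjusted p of 3.5e-06 to 7.7e-06 rest on that floor and are not read as support.

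**Figure D4:**
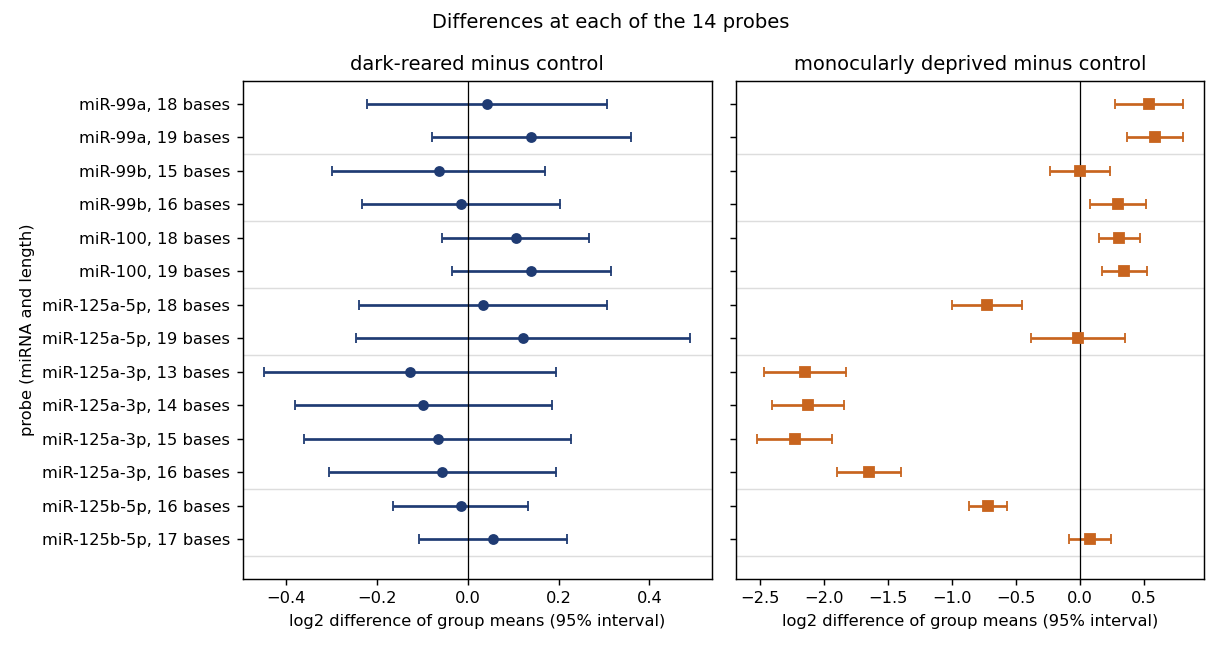
Log2 difference of group means (horizontal axis, a separate range in each panel) with its 95% interval for the 14 probes, grouped by miRNA and ordered by length (rows), for dark-reared minus control (left) and monocularly deprived minus control (right). In the right panel both probes of miR-99a and of miR-100 lie above 0, while the shorter probes of miR-125a-5p and miR-125b-5p lie at -0.72 and the longer ones near 0.

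The difference between the changes of the longest and the shortest probe was not limited to these families. Monocularly deprived minus control, the longer probe exceeded the shorter by 0.79 on the log2 scale for miR-125b-5p, 0.71 for miR-125a-5p, 0.30 for miR-99b, 0.05 for miR-99a and 0.04 for miR-100. Over 185 miRNAs with probes of different length that were measured in the same way, this quantity had a median of 0.12 with quartiles of 0.06 and 0.23, and 90.3% of them were above 0. Thus miR-125b-5p, miR-125a-5p and miR-99b lay above the upper quartile and miR-99a and miR-100 below the lower. Dark-reared minus control, the median was 0.04 and the 5 members had 0.03 to 0.10.

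Probe length itself moved with the monocular comparison. Among probes well above background on all 9 arrays, the 126 probes of up to 16 bases had a median log2 difference of -0.13, the 120 probes of 17 or 18 bases had 0.08 and the 182 probes of 19 or more bases had 0.17, monocularly deprived minus control. By their length all 4 probes of miR-125a-3p belong to the shortest class, as do both of miR-99b and the shorter probe of miR-125b-5p. The part of probe length in the members' differences was not tested.

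Differences between 2 miRNAs within an array do not depend on the scaling factor, and 9 such pairs were compared with a two-sided exact permutation test. With 3 arrays against 3 the smallest p it can give is 0.10, so none could pass. miR-125a-3p relative to miR-125a-5p, the arms of 1 hairpin, was lower by a log2 value of 2.20 in monocularly deprived than in control cortex, without overlap (exact p = 0.10, adjusted p = 0.15), with the same limit from its 3 dim probes. Relative to let-7c of its own cluster, miR-99a changed by 0.24 and miR-125b-5p by -0.34 on the log2 scale, both without overlap (exact p = 0.10 each). let-7c and let-7a also have genes outside these clusters.

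In the other clusters, miR-100 relative to let-7a changed by 0.22 and miR-125a-5p relative to let-7e by -0.34 on the log2 scale, monocularly deprived minus control, without overlap (exact p = 0.10 each). miR-99b relative to let-7e changed by 0.06, with overlap (exact p = 0.60). With normexp the value for miR-100 relative to let-7a turned to -0.02. Dark-reared minus control, the 9 within-array differences had exact p of 0.20 to 0.90.

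Within the families, miR-99a relative to miR-99b was higher by 0.37 on the log2 scale in monocularly deprived than in control cortex, without overlap (exact p = 0.10). miR-99a relative to miR-100 changed by 0.24 with overlap (exact p = 0.20), and miR-125a-5p relative to miR-125b-5p by -0.18 with overlap (exact p = 0.30).

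Of the let-7 list, the cluster partners of these families and their relatives, all 9 miRNAs were tested. In monocularly deprived against control cortex 1 rose, miR-98 (log2 difference 0.26, limma adjusted p = 0.030), and 0 fell. Of all tested miRNAs 15.7% were called higher and 17.3% lower, so this count is not read as particular to let-7. The median log2 difference of the 9 was 0.15, beside 0.08 over all tested miRNAs. The call on miR-98 held under 19 of 29 alternatives. It was lost on leaving out dark-reared replicate 3 (adjusted p = 0.053), monocularly deprived replicate 1 (0.079) or 3 (0.071), or control replicate 1 (0.11) or 2 (0.11 in limma). let-7c had a log2 difference of 0.34 and missed the threshold (limma adjusted p = 0.067). In dark-reared against control cortex 0 of 9 were called, beside 0.629% of all tested miRNAs, with log2 differences of 0.04 to 0.11.

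The opposite strands of the clustered hairpins had 4 names on the arrays, of which 2 were tested. Both were called lower in monocularly deprived than in control cortex, beside 17.3% of all tested miRNAs, and both are dim. miR-125b*, which RefSeq names miR-125b-2-3p, comes from Mir125b-2, and its sequence is shown because it shares the 12 bases agguucuuggga with miR-125a-3p. The capitals mark its seed.
miR-125b*: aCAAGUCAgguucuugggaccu
It had log2 levels of -5.35, -4.83 and -5.28 in dark-reared, -7.42, -7.89 and -7.81 in monocularly deprived and -5.15, -4.88 and -4.98 in control cortex.

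No monocularly deprived array held a probe of miR-125b* well above background, so its level there is only a bound. The miRNA was at least 1.45-fold lower there than in control. It was tested only because it was detected on all control and dark-reared arrays. The limma adjusted p of 7.9e-06 belongs to the log2 difference of -2.70 and not to the bound, and it is not read as support. Of its 4 probes the 16-base one was tested by itself, only because it was well above background on all control arrays. That probe was at least 1.73-fold lower in monocularly deprived cortex, where all its values were at the floor. Its limma adjusted p of 0.00089 rests on that floor.

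miR-99b* had log2 levels of -6.38, -5.78 and -6.35 in dark-reared, -6.78, -7.32 and -6.57 in monocularly deprived and -5.58, -5.73 and -5.63 in control cortex. The mean over its 4 probes was called lower in monocularly deprived than in control cortex (log2 difference -1.24, limma adjusted p = 0.0042), but 3 of them were not well above background on any array, so that size is not a measured change. Its 15-base probe differed by -0.57 on the log2 scale without overlap and was not tested by itself. The call on miR-125b* held under 26 of 28 alternatives and that on miR-99b* under 24 of 29, and both were lost with normexp (adjusted p = 0.59 for both in limma). miR-99b* was well above background on 1 dark-reared, 1 monocularly deprived and 2 control arrays. miR-125b-3p and let-7c-1* were not tested, because neither was detected on all arrays of any group.

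Of 27 tested marker miRNAs of cell types, 8 were called in the monocular comparison (29.6%, beside 33% of all tested miRNAs). Of 5 neuronal markers 1 fell (miR-9, log2 difference -0.50), and of 3 vascular markers 2 fell (miR-126-5p and miR-145), with summed relative levels of 1.85 to 2.01 in monocularly deprived and 1.67 to 1.86 in control cortex. Nearly all of that sum is miR-126-3p, at 1.88 in monocularly deprived and 1.66 in control cortex, which was not called (log2 difference 0.18). Such sums are led by their brightest miRNAs, whose probes may bind unlike the others. miR-145 is dim, and was well above background on 1 monocularly deprived, 1 dark-reared and 3 control arrays. Of 5 microglial and leukocyte markers 1 fell (miR-150, log2 difference -0.77), with sums of 0.391 to 0.460 in monocularly deprived and 0.421 to 0.464 in control cortex. None of 4 astrocyte and glial markers was called, with sums of 25.3 to 31.3 in monocularly deprived and 24.5 to 27.2 in control cortex. None of 3 erythrocyte markers was called either, although their sums of 2.69 to 3.00 in monocularly deprived cortex lay above the 1.33 to 2.56 in control. Of 3 oligodendrocyte markers miR-219 rose and miR-338-5p fell, with sums of 3.05 to 3.70 in monocularly deprived and 2.50 to 3.19 in control cortex. miR-338-5p was well above background on 2 monocularly deprived and 3 control arrays. Of 4 tested choroid plexus and epithelial markers 2 rose (miR-200b and miR-429), with sums over the 5 on the array of 0.858 to 0.925 in monocularly deprived and 0.712 to 0.785 in control cortex. These sums were 0.944 to 1.25 in dark-reared cortex. Between dark-reared and control cortex 1 of the 27 markers was called (3.7%, beside 0.629% of all tested miRNAs). It was miR-200b, again higher (log2 difference 0.76, limma adjusted p = 0.045). The part of any of these cell types in the members' differences was not tested.

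Among the tested miRNAs outside these families, those whose log2 levels ran most alike with each member over the 9 arrays were found by Pearson's r. The 6 members were left out of the search, so none could be found near another. The r is given as a description because all points share the 2 slides. For miR-99a these were miR-20a (r = 0.959) and miR-218 (r = 0.952), and for miR-100 they were miR-19a (r = 0.988) and miR-378* (r = 0.976). miR-99b ran most like let-7c (r = 0.895) and miR-218 (r = 0.873). For miR-125a-3p they were miR-421 (r = 0.998) and miR-721 (r = 0.998), which were also lower in monocularly deprived than in control cortex, by log2 differences of -2.30 and -2.59. No monocularly deprived array held a probe of either well above background, so neither size is a measured change. On the control arrays miR-421 was well above background on 3 and miR-721 on 2.

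miR-125a-5p ran most like miR-30d (r = 0.925) and miR-30a* (r = 0.922), and miR-125b-5p most like miR-139-5p (r = 0.881) and miR-149 (r = 0.850).

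**Figure D5:**
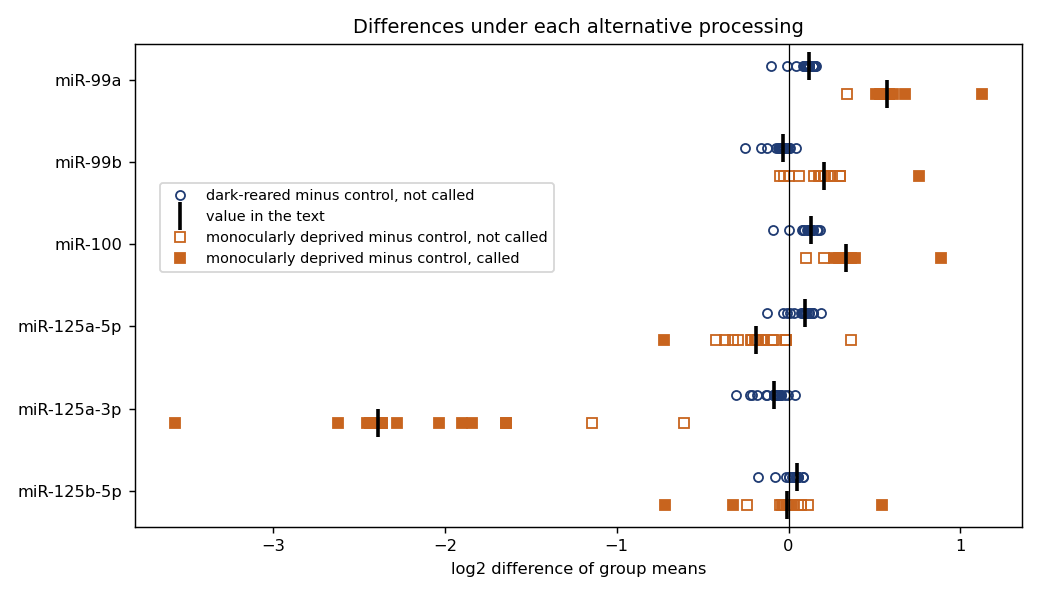
Log2 difference of group means (horizontal axis) of the 6 miRNAs (rows) under 29 alternative ways of processing and testing. Blue circles are dark-reared minus control, orange squares are monocularly deprived minus control, filled symbols have an adjusted p under 0.05 and black bars are the values in the text. miR-99a, miR-100 and miR-125a-3p keep their side of 0 in the monocular comparison under all 29, while miR-99b, miR-125a-5p and miR-125b-5p fall on both sides.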

How the data were processed

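Mature miRNA was measured in 9 cortex samples, 1 Agilent array each. The input was 100 ng of total RNA, hybridised at 64 °C per the labels. The authors deposited scanner files of fluorescence intensity, from which Feature Extraction 10.1.1.1 had subtracted background, per the file headers. Their series matrix held the same intensity values.

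Processed intensity was averaged over spots (outlier spots left out) and linearly over probes, divided by the array's 75th percentile over 433 probes (those well above background on every array), floored at the 1st percentile of detected mouse miRNAs and taken to log2. The 318 mouse miRNAs detected on all 3 arrays of a group were tested with limma 3.58.1 (R 4.3.3; 3 group means, 6 residual and 2.21 prior degrees of freedom, Benjamini-Hochberg within a comparison). The steps were tested on simulated data. The number of arrays limits the precision.

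Same-numbered dark-reared and control arrays share a slide column and deviated together (r = 0.887, 0.324 and 0.815 across miRNAs). They were therefore treated as pairs in the within-pair differences and in the fit with the replicate block. The calls in the text come from the fit of 3 group means, which has no pairing. No label gives a pairing, and dark-reared replicate 3 with control replicate 2 had r = 0.615. Replicates of a group differed by more than the spot noise. Every member, the let-7 list, the opposite strands, the same-seed miRNAs and the 2 nearest non-member miRNAs by r are named. The members and lists were chosen with earlier results of these data known. Alternatives changed the scaling, background correction, probe summary, filter, floor, source of values, test, block and arrays used.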

Additional observations from a re-analysis of the deposited data

How the results depend on the processing

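With 3 arrays a group, signal over background limits what miR-125a-3p and the opposite strands can show. None of the 6 miRNAs was called between dark-reared and control cortex under any of the 29 alternatives. Between monocularly deprived and control cortex, miR-99a and miR-125a-3p were called under 27 of 29 and miR-100 under 23. With the replicate block 0, 3 and 2 members were called in the 3 comparisons (dark-reared minus control, monocularly deprived minus control, dark-reared minus monocularly deprived), as without it, and 1 miRNA of all was called between dark-reared and control, where 2 were without it. The block changed no other call on a member. It joined same-numbered arrays of all 3 groups, of which only the dark-reared and control ones share a slide column. Where a value below changed, the cause was not tested.

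Counts of members called moved to 5 (monocularly deprived minus control) and 5 (dark-reared minus monocularly deprived) with scaling on all miRNA probes, to 1 and 1 without scaling, and to 0 and 0 with normexp. Normexp without spots of very bright background gave 1 and 0. Scaling on the 90th percentile gave 1 and the mean of log2 probe values 5 for dark-reared minus monocularly deprived. With the shortest probe alone, an alternative chosen after seeing the data, both were 5. Of the 14 member probes, 11 (monocularly deprived minus control) and 9 (dark-reared minus monocularly deprived) were called, against 4 and 4 without scaling and 0 and 0 with normexp. Over all miRNAs, 105 and 91 calls became 234 and 247 with scaling on all probes, 36 and 37 without scaling, and 2 and 1 with normexp. They became 6 and 3 with normexp without spots of very bright background. Of the calls with scaling on all probes in monocularly deprived against control, 201 were higher and 33 lower, against 50 and 55 before, with quantile normalization 67 and 36, and without scaling 0 and 36. Between dark-reared and control, 2 calls became 1 with scaling on all probes, quantile normalization, the 90th percentile, mean of log2 probe values, outlier spots kept, total gene signal or an intensity trend. Normexp without spots of very bright background also gave 1. They became 0 without scaling, with normexp, with no floor, with a floor at the 5th percentile or with the shortest probe, and 4 with miRNAs detected on all 9 arrays.

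Leaving out 1 array gave 0 to 0, 2 to 3 and 1 to 3 members in the 3 comparisons, and 0 to 3, 66 to 104 and 49 to 91 miRNAs of all. miR-100 was not called in monocularly deprived against control without monocularly deprived replicate 1 (adjusted p = 0.058), control replicate 1 (0.058) or control replicate 2 (0.051), and all calls there were 69, 69 and 66. Between dark-reared and monocularly deprived, all calls were 54 without dark-reared replicate 1 and 49 without monocularly deprived replicate 1. miR-99b passed there without dark-reared replicate 2 (-0.33, adjusted p = 0.039).

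No called log2 difference of the 6 miRNAs turned its sign, and miR-99b* did with normexp without spots of very bright background (0.010, monocularly deprived minus control). Uncalled differences of the 6 did turn. For dark-reared minus control, scaling on all probes gave -0.0078 for miR-99a, -0.031 for miR-125a-5p and -0.080 for miR-125b-5p. No scaling gave -0.10 for miR-99a, -0.092 for miR-100, -0.13 for miR-125a-5p and -0.18 for miR-125b-5p. Normexp without spots of very bright background gave 0.0011 for miR-99b and 0.040 for miR-125a-3p, total gene signal 0.0068 for miR-99b, and the shortest probe -0.016 for miR-125b-5p. Leaving out single arrays spanned -0.12 to 0.043 for miR-99b and -0.0069 to 0.19 for miR-125a-5p. For monocularly deprived minus control, scaling on all probes gave 0.36 for miR-125a-5p and 0.55 for miR-125b-5p (adjusted p = 0.024), no scaling -0.026 for miR-99b, and normexp -0.047 for miR-99b and 0.11 for miR-125b-5p. miR-125b-5p was at 0.075 with the brightest or the longest probe and 0.0041 with outlier spots kept, and leaving out single arrays spanned -0.048 to 0.030. For dark-reared minus monocularly deprived, scaling on all probes gave -0.39 for miR-125a-5p and -0.63 for miR-125b-5p, normexp -0.071 and the brightest or longest probe -0.019 for miR-125b-5p. The within-array difference miR-100 minus let-7a turned to -0.021 (monocularly deprived minus control) and 0.048 (dark-reared minus monocularly deprived) with normexp.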
